A study of Mus musculus with 16 samples.

Results

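Ear cartilage was followed through 10 genes that encode its non-collagen matrix and its main transcription factor: Sox9, Acan, Hapln1, Matn1, Matn3, Matn4, Comp, Chad, Cilp and Ucma. They were listed by name, with earlier results of these data known, and each was matched by symbol to 1 of the 45706 Ensembl genes in the deposited count table. The study took a 3 mm disc from the first ear of 8 male C57Bl/6J mice at 24 months and from the second ear of the same animals at 30 months, which gave 16 RNA-seq libraries in 8 pairs. C57Bl/6J is an inbred laboratory strain, and the labels name no transgene and no treatment. The labels give 23.8 to 24.4 months for the earlier and 29.0 to 30.1 months for the later biopsies, and call these young and old. Since every first biopsy came from 1 ear and every second biopsy from the other, age and ear cannot be told apart. The animals carry the numbers 13, 14, 21, 29, 43, 50, 64 and 75 in the labels, which are used below.

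The pinna of the ear is a thin plate of elastic cartilage between layers of skin. Its chondrocytes are surrounded by a matrix of type II, IX and XI collagen fibrils, elastin, and aggrecan, a large proteoglycan that holds water and is anchored to hyaluronan by link protein. Smaller proteins such as matrilins, COMP and chondroadherin connect these networks with each other and with the cells, and SOX9 is the transcription factor that sets and keeps the chondrocyte state. A whole-disc biopsy also holds epidermis, hair follicles, dermis, fat, vessels and muscle, so that in these bulk libraries fewer cartilage cells and less RNA per cartilage cell cannot be told apart.

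The labels name the tissue skin, and both skin and cartilage were present in every library. The 7 basal keratinocyte genes summed to between 8769 and 17374 CPM (counts per 1000000 reads) over both ages. The 6 cartilage collagens Col2a1, Col9a1, Col9a2, Col9a3, Col11a1 and Col11a2, which are not among the 10 genes, summed to between 26.0 and 136 CPM. Reads assigned to genes numbered 22967222 to 36162431 in a library (median 28922265). 1 library had the lowest sum of the cartilage collagens. Not all of the 10 genes were low in it, with Acan at 58.7 CPM, the highest at 30 months. In mouse 29 at 30 months, the 6 cartilage collagens were at 26.0 CPM, below the next lowest library at 47.2 CPM, although 29875101 of its reads were counted on genes.

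The stretches upstream of the transcription start are shown for 4 genes: the 3 genes with the smallest p-values between the ages that had an entry in the promoter table (Matn4, Hapln1, Chad), and Cilp, which had the highest CPM. Each line gives the 150 bases before the start, 5′ to 3′ on the gene's own strand, from RefSeq on GRCm38.p6. Capitals mark the letters TATAAA.
Matn4, chr2:164405161-164405310, minus strand: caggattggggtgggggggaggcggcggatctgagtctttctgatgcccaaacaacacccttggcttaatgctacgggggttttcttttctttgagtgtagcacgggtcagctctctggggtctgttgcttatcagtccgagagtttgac
Hapln1, chr13:89540486-89540635, plus strand: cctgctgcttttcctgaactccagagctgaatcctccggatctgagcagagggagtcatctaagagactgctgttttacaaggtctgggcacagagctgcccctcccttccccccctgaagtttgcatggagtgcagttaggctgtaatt
Chad, chr11:94564897-94565046, plus strand: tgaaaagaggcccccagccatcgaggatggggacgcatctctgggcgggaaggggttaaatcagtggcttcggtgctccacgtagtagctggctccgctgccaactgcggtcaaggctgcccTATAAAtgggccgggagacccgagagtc
Cilp, chr9:65265030-65265179, plus strand: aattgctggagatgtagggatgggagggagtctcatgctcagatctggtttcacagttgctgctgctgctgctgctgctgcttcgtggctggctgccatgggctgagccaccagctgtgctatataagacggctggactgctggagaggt
Of the 10 genes, 8 had an entry, with 9 starts between them, because Matn4 is listed with 2. Comp and Sox9 had none. Over the full window of 300 bases (250 before and 50 after the start), both strands were searched for TATAAA and for AACAAT and ACAAAG, the core letters that SOX proteins bind. TATAAA was found for Chad and for none of the other 7 genes, and 13.6% of the 32851 mouse promoters hold it. Neither SOX sequence was found in any of the 9 windows, while 27% of all promoters hold at least 1 of them (10.7% AACAAT, 18.7% ACAAAG). These are matches of letters in a short window only.

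Compared per exon length, the 10 genes spanned a wide range of levels. In reads per kilobase of exon and 1000000 reads (RPKM, mean ± SD over 16 libraries), Chad was highest at 64.4 ± 18.0, followed by Cilp at 44.1 ± 9.18, Comp at 16.5 ± 3.76, Sox9 at 11.3 ± 1.85 and Acan at 5.90 ± 1.87. Ucma (2.84 ± 1.27), Matn4 (1.36 ± 0.584), Hapln1 (0.983 ± 0.300), Matn3 (0.248 ± 0.165) and Matn1 (0.0157 ± 0.0240) were lower. Cilp and Comp were the only neighbours in this order whose ranges over the libraries did not overlap. Chad exceeded Cilp in 12 of 16 libraries and Matn4 exceeded Hapln1 in 12 of 16. The other pairs of neighbours kept the order in 15 or 16 libraries.

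Between 24 and 30 months, none of the 10 genes passed the test, and neither did any other gene. With edgeR's quasi-likelihood test and the mouse as a block, 0 of the 21526 genes tested had an adjusted p under 0.05, a background of 0%. Matn1 had too few reads to be tested. The fitted level of each of the other 9 was lower at 30 months, beside 48.3% of all genes tested. At an unadjusted p under 0.05, 3 of the 9 were lower (Comp, Matn4 and Hapln1) and 0 higher, beside 7.18% of all genes that were lower at that level. Their median log2 fold change was -0.23, against 0.01 for all genes tested. The count of 3 depended on single animals. It was 0 without mouse 21 and 1 without mouse 13 (Chad), mouse 14 (Comp) or mouse 29 (Matn4). Of all genes, 998 of 21428 were lower at that level without mouse 21. The numbers were 1211 of 21351, 1371 of 21446 and 1248 of 21382 without mouse 13, 14 and 29. DESeq2's Wald test gave 4 lower genes at an unadjusted p under 0.05 and 0 of the 10 after adjustment, beside 6.01% and 0.753% of all genes that were lower by these rules. Matn3 received no adjusted p from DESeq2.

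**Figure D1:**
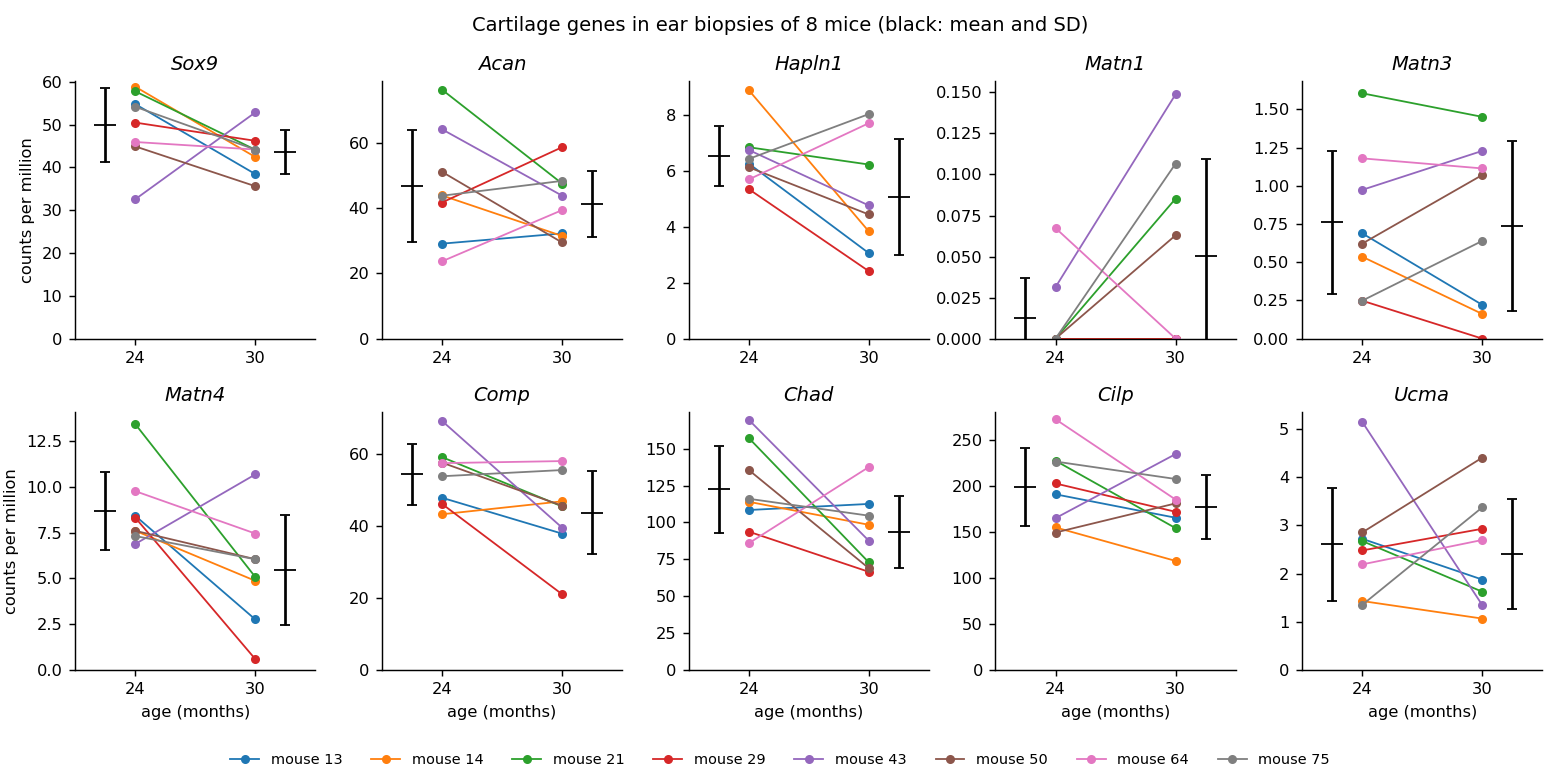
CPM of the 10 genes at 24 and 30 months (each panel has its own vertical axis), with a coloured line for each of the 8 mice and the mean and SD of each age in black (bars of Matn1 are cut at 0). The ages overlapped in every panel, and Matn4 of mouse 29 at 30 months lay at 0.586 CPM, below the other 15 libraries.

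Sox9 (ENSMUSG00000000567, GRCm38 chromosome 11, 112782224 to 112787760, plus strand) encodes the transcription factor that activates Col2a1, Acan and other chondrocyte genes, and it is also made by hair follicle cells. At 24 months its level was 32.6 to 58.9 CPM (median 52.3) and at 30 months 35.6 to 52.8 CPM (median 44.2). The level was lower at 30 months in 7 of 8 mice, and the ages overlapped over most of their range. Mouse 43 was the exception, going from 32.6 CPM, the lowest of all libraries, to 52.8 CPM, the highest at 30 months. The fitted log2 fold change was -0.19 (SE 0.12, 95% interval -0.46 to 0.08, adjusted p = 0.547). Without mouse 43 it was -0.31, with an unadjusted p of 0.00139 and an adjusted p of 0.129. Many other genes also had smaller p-values in that fit. Of all genes, 3772 of 21444 had an unadjusted p under 0.05, against 2593 of 21526 with every mouse. The 8 hair follicle marker genes summed to 8.63 to 223 CPM at 24 months and 12.5 to 60.9 CPM at 30 months. The 223 CPM was mouse 75, with the next library at 24 months at 50.2 CPM. This sum was higher at 30 months in 3 mice and lower in 5. In mouse 43 it went from 8.63 to 48.3 CPM. The part of hair follicles in the Sox9 reads was not tested.

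Acan (ENSMUSG00000030607, chromosome 7, 79053483 to 79115099, plus strand) encodes aggrecan, the proteoglycan that gives cartilage its resistance to compression. Its level ranged from 23.7 to 76.4 CPM at 24 months (median 43.9) and from 29.5 to 58.7 CPM at 30 months (median 41.7). It was lower in 4 mice and higher in the other 4. The range at 30 months lay within that at 24 months. Its log2 fold change was -0.13 (SE 0.18, 95% interval -0.52 to 0.26, adjusted p = 0.784).

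Hapln1 (ENSMUSG00000021613, chromosome 13, 89539796 to 89611652, plus strand) encodes link protein, which fastens aggrecan to hyaluronan. It was counted at 5.35 to 8.89 CPM at 24 months (median 6.34) and at 2.41 to 8.03 CPM at 30 months (median 4.60). Mice 64 and 75 had more Hapln1 at 30 months and the other 6 had less, so that the spread at 30 months (SD 2.08) was wider than at 24 months (SD 1.07). The largest difference was that of mouse 14, from 8.89 to 3.83 CPM. The fit gave a log2 fold change of -0.46 (SE 0.20, 95% interval -0.91 to -0.01), with an unadjusted p of 0.0459 and an adjusted p of 0.405. It ranged from -0.59 without mouse 64 to -0.35 without mouse 14.

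The matrilins are adaptor proteins that form oligomers and bridge collagen fibrils and aggrecan. Matn1 (ENSMUSG00000040533, chromosome 4, 130944385 to 130955475, plus strand) was nearly absent, with 0 to 2 reads per library at 24 months and 0 to 4 at 30 months. It had no read in 10 of 16 libraries, and no fold change is given at this depth. Matn3 (ENSMUSG00000020583, chromosome 12, 8947929 to 8972028, plus strand) had 7 to 45 reads per library at 24 months and 0 to 34 at 30 months. In CPM this was 0.248 to 1.60 (median 0.655) and 0 to 1.45 (median 0.855). The lowest libraries were those of mice 29, 14 and 13 at 30 months (0, 0.161 and 0.220 CPM), followed by mice 29 and 75 at 24 months (0.248 and 0.249 CPM). The log2 fold change was -0.23 (SE 0.41, 95% interval -1.13 to 0.67, adjusted p = 0.833), and -0.04 without mouse 13.

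Matn4 (ENSMUSG00000016995, chromosome 2, 164389393 to 164405160, minus strand) was the most abundant of these 3 matrilins and had the largest fitted difference of the 9 genes tested. Of its exon bases, 149 overlap Rbpjl on the opposite strand, and reads there could not be assigned with certainty. The level was 6.87 to 13.4 CPM at 24 months (median 7.97) and 0.586 to 10.7 CPM at 30 months (median 5.56). It was lower in 7 of 8 mice, with mouse 43 again the exception (6.87 to 10.7 CPM). In mouse 29 it went from 8.33 to 0.586 CPM, which was 17 reads. Mice 13 and 21 followed, from 8.42 to 2.75 CPM and from 13.4 to 5.08 CPM. In the fit, Matn4 had a log2 fold change of -0.87 (SE 0.38, 95% interval -1.72 to -0.03), with an unadjusted p of 0.0438 and an adjusted p of 0.401. Mouse 29 decided much of this size, since without it the log2 fold change was -0.56 with an unadjusted p of 0.0435 and an adjusted p of 0.515.

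Comp (ENSMUSG00000031849, chromosome 8, 70373558 to 70382066, plus strand) encodes a protein of the thrombospondin family with 5 arms that binds collagen, and it is also made in tendon. It had the smallest p-value of the 9 genes tested with edgeR, whereas with DESeq2 Matn4 had a smaller one (unadjusted p of 0.0098 against 0.0152). Levels were 43.2 to 69.2 CPM at 24 months (median 55.6) and 20.99 to 58.0 CPM at 30 months (median 45.5). Of the 8 mice, 5 had lower levels at 30 months. The other 3 (mice 14, 64 and 75) were close to their first value, with log2 differences of at most 0.11. The lowest library was again that of mouse 29 at 30 months. For Comp the fitted log2 fold change was -0.35 (SE 0.13, 95% interval -0.65 to -0.05), with an unadjusted p of 0.0256 and an adjusted p of 0.351. Without mouse 29 it was -0.24, with an unadjusted p of 0.0553. The 10 tendon and perichondrium genes summed to 523 to 2054 CPM at 24 months and 364 to 1659 CPM at 30 months, and their part in Comp was not tested.

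Chad (ENSMUSG00000039084, chromosome 11, 94565047 to 94569127, plus strand) encodes chondroadherin, a leucine-rich repeat protein that binds type II collagen and integrins on chondrocytes. Its level was 85.9 to 170 CPM at 24 months (median 115) and 66.5 to 138 CPM at 30 months (median 93.0). The mice with the highest values at 24 months, 43 (170 CPM), 21 (157 CPM) and 50 (136 CPM), had 87.6, 72.9 and 68.9 CPM at 30 months. Mouse 64 went the other way, from 85.9 CPM, the lowest at 24 months, to 138 CPM, the highest at 30 months. The level was lower in 6 of 8 mice, and the log2 fold change was -0.40 (SE 0.19, 95% interval -0.81 to 0.01, adjusted p = 0.426). It was -0.55 without mouse 64 and -0.29 without mouse 21.

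Cilp (ENSMUSG00000042254, chromosome 9, 65265180 to 65280605, plus strand) encodes cartilage intermediate layer protein, which binds TGF-β and is also made by fibroblasts. It was counted at 149 to 272 CPM at 24 months (median 197) and at 118 to 234 CPM at 30 months (median 176). Mice 43 and 50 had higher and the other 6 lower levels at 30 months. The log2 fold change was -0.16 (SE 0.12, 95% interval -0.43 to 0.10, adjusted p = 0.599). It was -0.25 with an unadjusted p of 0.0312 without mouse 43, and -0.10 without mouse 21. Over all genes, 3772 of 21444 had an unadjusted p under 0.05 without mouse 43, against 2593 of 21526 with every mouse.

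Ucma (ENSMUSG00000026668, chromosome 2, 4976122 to 4985748, plus strand) encodes a small secreted protein with γ-carboxyglutamic acid that is made by chondrocytes. Levels were 1.35 to 5.15 CPM at 24 months (median 2.58) and 1.06 to 4.41 CPM at 30 months (median 2.29). The level was lower in 4 mice and higher in 4, from a log2 difference of -1.87 in mouse 43 to 1.26 in mouse 75. The log2 fold change was -0.12 (SE 0.31, 95% interval -0.80 to 0.56, adjusted p = 0.888), and it changed sign to 0.13 without mouse 43.

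**Figure D2:**
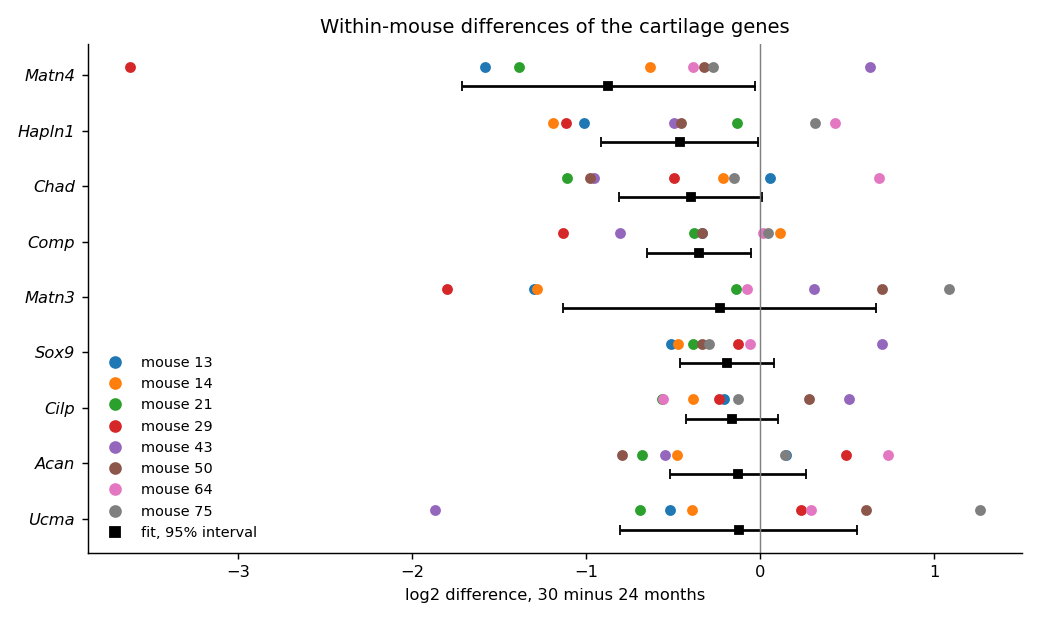
Differences of log2(CPM + 0.1) between 30 and 24 months within each mouse (coloured points) for the 9 genes tested, with the fitted log2 fold change and its 95% interval (black squares and bars) on the horizontal axis. The intervals of Matn4, Hapln1 and Comp ended below 0 before adjustment for the number of genes, and the point of mouse 29 for Matn4 lay at -3.62.

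The 10 genes together summed to 433 to 602 CPM at 24 months and 347 to 483 CPM at 30 months, and this sum was lower at 30 months in each of the 8 mice. Cilp and Chad made up most of it. In mouse 64 the sum went from 504 to 483 CPM, with Cilp going from 272 to 185 CPM and Chad from 85.9 to 138 CPM. The fall of the sum in that mouse therefore rested on Cilp. The share of all genes that were lower in each of the 8 mice was not counted. The 6 cartilage collagens were lower in 7 of 8 mice, with within-mouse log2 differences from -1.41 in mouse 29 to 0.22 in mouse 64. Mouse 64 was also the one with the highest within-mouse log2 difference of Acan (0.73), Chad (0.68) and Hapln1 (0.43).

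The 10 genes did not vary as 1 block across the libraries. Correlations of log2 CPM are given here as a description over 16 libraries, which share animals and sequencing depth. With the sum of the 6 cartilage collagens, Pearson's r was 0.87 for Comp, 0.83 for Hapln1, 0.83 for Matn4, 0.71 for Chad and 0.68 for Matn3. It was 0.29 for Acan, 0.16 for Ucma, 0.14 for Sox9 and 0.10 for Cilp. Without the 2 libraries farthest from the median of the collagen sum, r was 0.76 for Hapln1, 0.68 for Comp, 0.65 for Acan and 0.54 for Chad. The high values of Matn4 and Matn3 rested on those libraries, since r was then 0.41 and 0.24. Spearman's rho for Matn4 was 0.37 over all 16. Among the 36 pairs of the 9 genes, r had a median of 0.22 and ranged from -0.51 for Sox9 with Ucma to 0.81 for Comp with Matn4, and 7 pairs exceeded 0.6. In the within-mouse differences, Acan and Chad were the most alike pair (r = 0.81 over 8 mice), although their r across libraries was 0.41.

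**Figure D3:**
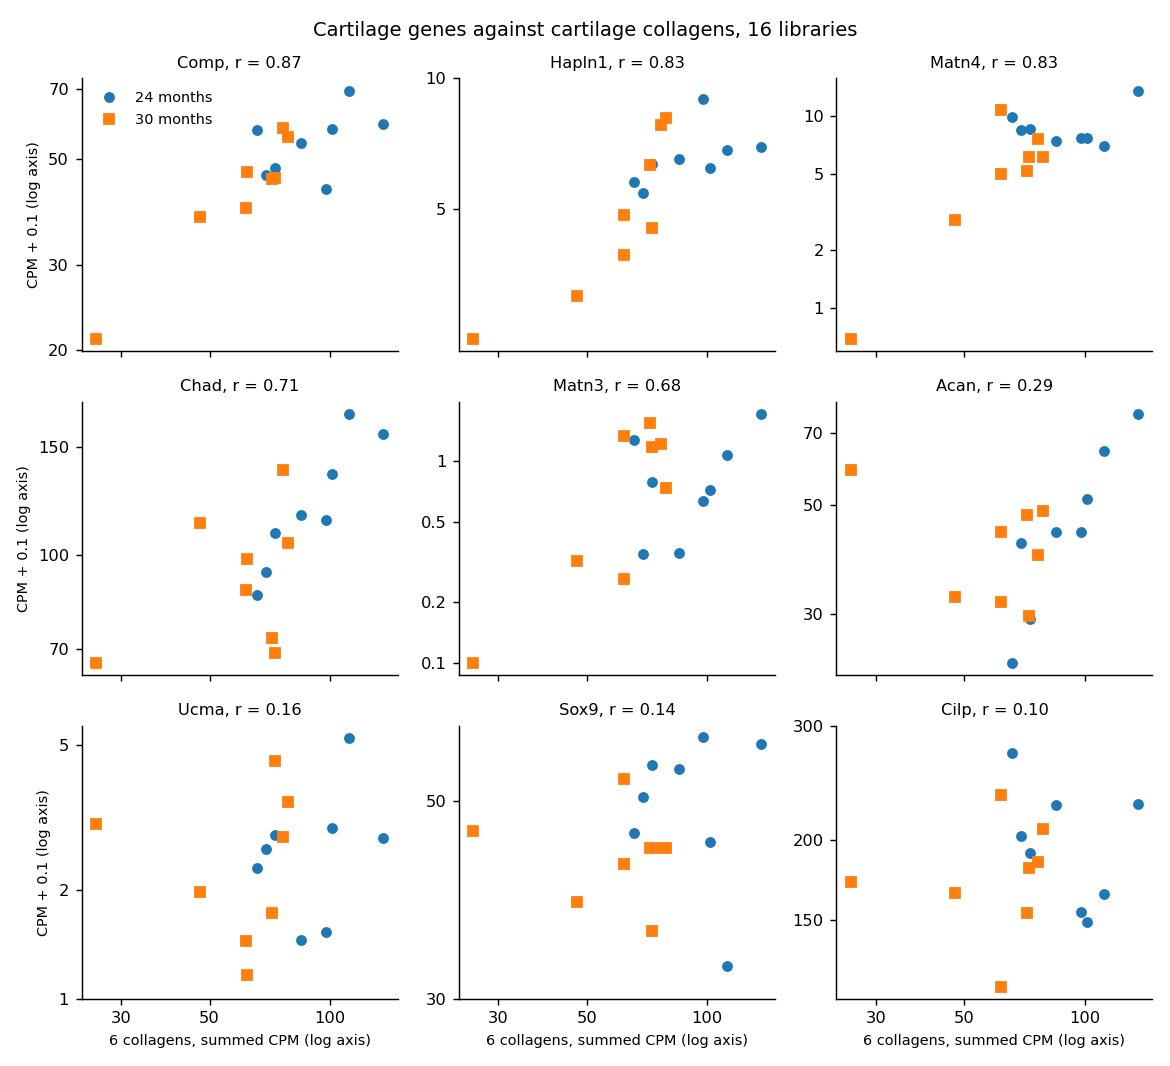
CPM of each of the 9 genes tested (vertical, log axis) against the summed CPM of 6 cartilage collagens (horizontal, log axis) in 16 libraries, with circles for 24 and squares for 30 months. The library of mouse 29 at 30 months is the leftmost point of every panel, at 26.0 CPM, and it was lowest for Comp, Hapln1, Matn4, Chad and Matn3 but not for Acan, Ucma, Sox9 or Cilp.

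Of 17778 other genes with a mean of at least 1 CPM, the 10 whose log2 CPM was most alike to the mean standardized level of the 9 genes were Col8a1 (Pearson's r = 0.91), Pam (0.91), Col11a1 (0.90), Itih5l-ps (0.89), Lsamp (0.88), Susd5 (0.88), Abi3bp (0.87), Chadl (0.87), Cnmd (0.86) and Ccdc80 (0.85). Col8a1 encodes a short-chain collagen, Col11a1 a chain of the cartilage fibril collagen XI, Cnmd chondromodulin and Pam an enzyme that amidates peptides. Col8a1 had a log2 fold change of -1.02 between the ages (adjusted p = 0.222).

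The collagens of cartilage form its fibrils and the network around its cells. All 8 collagen genes listed (the 6 above, Col10a1 and Col27a1) had lower fitted levels at 30 months, beside 48.3% of all genes tested. Of them, 6 were lower at an unadjusted p under 0.05, beside 7.18% of all genes, and 0 after edgeR's adjustment, and the median log2 fold change was -0.61. Col10a1, the collagen of hypertrophic cartilage, had a fitted log2 fold change of -0.11 (adjusted p = 0.919) although its mean was 2.05 CPM at 24 months and 2.59 CPM at 30 months, and the fitted value was above 0 without the block (0.32) and without mouse 13 (0.03), 14 (0.08) or 29 (0.05). Col2a1, the main fibril collagen, was lower in each of 8 mice, from 10.2 ± 3.54 to 6.63 ± 2.65 CPM (mean ± SD), with a log2 fold change of -0.64 (SE 0.11, adjusted p = 0.141). Col9a3 went from 27.2 ± 8.07 to 16.5 ± 7.01 CPM (log2 fold change -0.83, SE 0.28, adjusted p = 0.316). DESeq2 called 3 of the 8 lower, beside 0.753% of all genes: Col2a1 (adjusted p = 3.8e-04), Col11a1 (adjusted p = 0.0240) and Col11a2 (adjusted p = 0.0243). Whether the collagens and the 10 genes differed in their change was not tested.

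Other cartilage matrix and secreted genes were lower in most cases by their fitted levels. Of 16 tested, 13 had lower and 3 higher fitted levels, 4 were lower at an unadjusted p under 0.05, and the median log2 fold change was -0.33, beside 48.3% and 7.18% of all genes lower by these rules. Cilp2, a relative of Cilp, was lower in each of 8 mice, from 10.7 ± 2.63 to 7.16 ± 1.52 CPM (log2 fold change -0.57, SE 0.14, adjusted p = 0.236 with edgeR and 0.0320 with DESeq2). Fmod, which encodes the collagen-binding fibromodulin, and Cnmd had log2 fold changes of -0.32 and -0.88 (adjusted p = 0.332 and 0.346). Cytl1, the most abundant gene of this list at 463 ± 123 and 509 ± 184 CPM, had a log2 fold change of 0.09 (adjusted p = 0.906). The summed CPM of the list was higher at 30 months in 4 mice and lower in 4. Its median was 918 CPM at 24 months and 932 CPM at 30 months.

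The regulators of chondrocytes other than Sox9 showed no gene at an unadjusted p under 0.05 in either direction among 13 tested (7 lower and 6 higher fitted levels, median -0.11), and 0 with DESeq2 after adjustment. Fgfr3, a growth factor receptor that restrains chondrocyte proliferation, stood at 332 ± 29.9 and 335 ± 29.5 CPM. Of the 13 genes of matrix-cleaving enzymes and their inhibitor, 6 had lower and 7 higher levels, beside 48.3% and 51.7% of all genes. The median of this list was 0.02. Adamts1, an aggrecan-cleaving protease, was lower in each of 8 mice, from 192 ± 37.2 to 125 ± 24.9 CPM (log2 fold change -0.62, SE 0.12, adjusted p = 0.156 with edgeR and 3.0e-04 with DESeq2). Mmp9, a gelatinase of several cell types, had a log2 fold change of -1.07 (SE 0.26, adjusted p = 0.222 with edgeR and 0.0069 with DESeq2). Adamts15 went the other way, with 0.44 (SE 0.26, adjusted p = 0.524 with edgeR). Timp3, the most abundant gene of the list, had -0.11 (SE 0.11, adjusted p = 0.717 with edgeR). Genes for the sulphation and the sugar chains of proteoglycans had 10 of 16 lower fitted levels (48.3% of all genes), 3 of them at an unadjusted p under 0.05 (7.18% of all genes). Among them was the sulphate transporter Slc26a2, from 132 ± 10.9 to 103 ± 11.50 CPM (log2 fold change -0.37, SE 0.07, adjusted p = 0.156 with edgeR and 0.0012 with DESeq2). The elastic matrix list had 6 of 10 lower fitted levels, near the share of all genes, and a median of -0.03, with Eln, the gene of elastin, at 124 ± 39.4 and 146 ± 61.3 CPM (adjusted p = 0.707).

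Among the markers of other cell types in the disc, none passed edgeR's adjusted threshold, and their fitted differences had both signs. DESeq2 called 3 of the genes named by the rule, beside 240 of all 21526 genes tested. They are given with edgeR's fitted log2 fold change and DESeq2's adjusted p. Emcn, an endothelial gene, had a log2 fold change of 0.86 (adjusted p = 0.0072). Among the genes of differentiated keratinocytes, Krt1 had 1.01 (higher in 8 of 8 mice, adjusted p = 0.0014). Dsg1a, of the same list, had -0.46 (lower in 8 of 8 mice, adjusted p = 0.0402). All 10 skeletal muscle genes had higher fitted levels at 30 months, beside 51.7% of all genes (median log2 fold change 0.84, 0 at an unadjusted p under 0.05), and their sum ranged from 858 to 9946 CPM at 24 months and from 1249 to 7971 CPM at 30 months. The muscle sum was higher at 30 months in 6 of 8 mice. In mouse 43, the exception for Sox9 and Matn4, it went from 9946 to 1249 CPM. All 6 endothelial genes were higher by their fitted levels, 4 at an unadjusted p under 0.05 (4.86% of all genes tested), with a median of 0.57 and sums of 91.8 to 130 CPM and 97.8 to 279 CPM. Beside 51.7% of all genes, fat cell genes had 7 of 8 and macrophage genes 6 of 7 higher levels (medians 0.29 and 0.24). Their sums were 453 to 1110 and 454 to 1279 CPM for fat, and 559 to 989 and 468 to 1860 CPM for macrophages. Fibroblast genes had 7 of 8 lower levels, beside 48.3% of all genes (median -0.42, 0 at an unadjusted p under 0.05). Their sums were 4001 to 7751 CPM at 24 months and 2597 to 14317 CPM at 30 months. The 14317 CPM was the library of mouse 50, with the next at 30 months at 5520 CPM. That library also had the highest macrophage sum (1860 CPM). The library of mouse 29 at 30 months had the lowest sums of the tendon and perichondrium list (364 CPM) and of the fibroblast list (2597 CPM) and the highest endothelial sum (279 CPM). The part of these cell types in the cartilage values was not tested.

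Fitted levels of the remaining lists were counted in the same way. Of all genes tested, 48.3% were lower and 51.7% higher, and 7.18% were lower at an unadjusted p under 0.05. Tendon and perichondrium genes had 7 of 10 lower levels (median -0.26, 3 at an unadjusted p under 0.05), basal keratinocyte genes 6 of 7 (median -0.16), differentiated keratinocyte genes 4 of 6 (median -0.19) and hair follicle genes 6 of 7 (median -0.47). Nerve and Schwann cell genes had 4 of 6 (median 0.03) and red blood cell genes 5 of 5 higher levels (median 0.20).

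**Figure D4:**
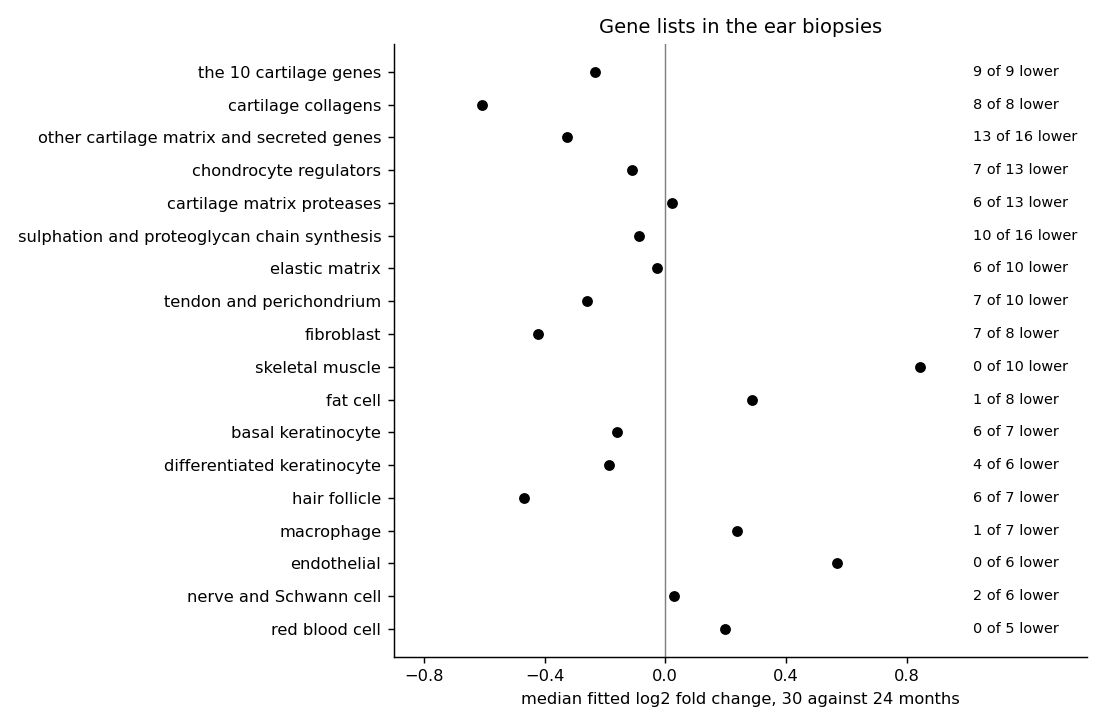
Median fitted log2 fold change between 30 and 24 months (horizontal axis) for the 10 cartilage genes and 17 other gene lists, with the number of tested genes whose fitted level was lower written at the right. The cartilage genes lay at -0.23, the cartilage collagens at -0.61 and skeletal muscle at 0.84, and the points carry no error because genes of a list are not replicates.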

How the data were processed

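RNA of ear discs was prepared with a TruSeq RNA v2 kit and sequenced as single-end 50 nt reads. The authors deposited raw counts per Ensembl gene, not normalized, with 1 column per library. Per the labels, the submitters' processing notes name CASAVA 1.8.4, TopHat2 2.1.0, HTSeq 0.6.1p1 and mm10, while the study's methods also name featureCounts and another TopHat version. Whether strand was used in counting is not given in the sources used here, so reads of overlapping genes on opposite strands are uncertain. The 5 lines of the table that name no gene took 18.7% to 21.1% of each library's reads and were left out.

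From the counts, CPM were computed with TMM library sizes (factors 0.957 to 1.035) and RPKM with exon lengths of GENCODE M21 on the same build, in which 45143 of the 45706 identifiers had an entry. Counts were tested with edgeR 4.0.16 in R 4.3.3 (filterByExpr, quasi-likelihood F-test, mouse as a block) and with DESeq2 1.42.0 as an alternative. P-values were adjusted by Benjamini-Hochberg over all 21526 genes tested, with a threshold of 0.05. The SE is the log2 fold change divided by the square root of F. The replicates are separate animals, and the 2 libraries of an animal are paired because they come from the same mouse. After subtracting the mean of each age, libraries of the same mouse correlated with a median of -0.03 (from -0.43 to 0.31) and those of different mice with a median of -0.02. The scripts were tested on simulated data. Correlations and figures were made with Python 3.11.15. Matn1 and Matn3 had so few reads that counting error limits their values.

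The 10 genes, the lists and the tests were chosen with earlier results of these data known. Genes named in the text are the 10, in each other list up to 3 with the smallest unadjusted p and the 2 with the highest mean CPM, and the 10 most alike across libraries. Col10a1 is described apart from this rule, after its values were seen. The cartilage collagens' counts under the alternatives were added after the data were seen.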

Additional observations from a re-analysis of the deposited data

Results flagged for a closer look

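Dixon's criterion was applied to 29 groups of 8 values. These were CPM at each age and within-mouse log2 differences of the 9 genes tested. The summed CPM of the 6 cartilage collagens at each age were included and not flagged. In 4 groups the highest value lay far from the nearest other one, where chance gives about 1 in 20, or 1.45. At 24 months, Matn4 was at 13.4 CPM in mouse 21, with the next mouse at 9.77 CPM. Hapln1 was at 8.89 CPM in mouse 14 at 24 months, with the next at 6.85 CPM. Ucma was at 5.15 CPM in mouse 43 at 24 months, with the next at 2.85 CPM. The within-mouse log2 difference of Sox9 was 0.70 in mouse 43, with the next mouse at -0.06. Without mouse 43, the fitted log2 fold change of Ucma was 0.13 and that of Sox9 -0.31.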

How the results depend on the processing

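No setting run called any of the 10 genes past the adjusted threshold (DESeq2 gave Matn3 no adjusted p). Over all genes, DESeq2's Wald test called 240 and the fit with no replicate block on the mouse called 3, where the main fit called 0. With each mouse left out in turn, the number called among the 10 stayed at 0. The log2 fold change of Ucma ranged from -0.32 (without mouse 75) to 0.13 (without mouse 43), the 1 reversal among the 9 genes tested. Another 173 values of the 10 genes, of all genes and of the count of collagens were counted as unchanged. They kept their direction and side of the threshold, stayed within 1.5 times of a count, or, for mean CPM with plain library sizes, moved by less than 1 SD. Matn3 with DESeq2, which had no adjusted p, was counted there as not past the threshold. The log2 fold changes of Acan and Matn3 were closest to 0 at -0.03 without mouse 50 and -0.04 without mouse 13. The number of the 10 genes lower at an unadjusted p under 0.05 was 3 in the main fit. It was 4 with DESeq2 or without a filter on low counts, and 2 with age in months as a covariate. It was 1 without the block, and 0 to 3 with a mouse left out. The genes differed between settings. Chad joined Comp, Matn4 and Hapln1 with DESeq2 and without the filter. With age in months they were Comp and Chad, and without the block Chad alone. Without mouse 43 they were Cilp, Matn4 and Sox9. For the 8 cartilage collagens the number lower at that level was 6, and 5 to 7 in all settings. Of all genes, 1546 of 21526 were lower at that level in the main fit, 1293 of 21526 with DESeq2 and 1645 of 34054 without the filter. It was 1416 of 21526 with age in months and 1633 of 21526 without the block. With a mouse left out, it ranged from 998 of 21428 (mouse 21) to 1845 of 21444 (mouse 43). Among the collagens, Col10a1 changed sign, to 0.32 without the block and 0.03 to 0.08 without mouse 13, 14 or 29. The causes of these differences were not tested. Depth limits Matn1 and Matn3.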
